A study of Mus musculus with 2 samples.

Results

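Mt1 and Mt2 are the metallothionein genes that most tissues express. Both were followed here as 2 of the 27998 genes counted per cell in limb tendon of pups at P7 (7 days of age), where 4 metallothionein genes (Mt1, Mt2, Mt3 and Mt4) were in the count tables. The pair was selected on its measured counts, which differed between the libraries and between Scx-high and other cells, so every level and ratio below is a description and no test was run on it. The study compared Tgfbr2 f/-;ScxCre pups (mutant), in which the type II TGFβ receptor is deleted by a Cre recombinase driven from the tendon gene Scx, with a control that the labels call wild-type in the title and Het in the description. Each genotype is 1 library, made from 2 pooled pups, and all pups carried the ScxGFP and RosaT reporters. Since Scx drives the Cre, the deletion followed each cell's past or present Scx expression and did not take place in all tendon cells at 1 stage. The paper reports uneven Cre activity in embryos and receptor staining almost gone from mutant tendons at birth. It also found the RosaT Cre reporter in the cells of mutant tendons that had lost ScxGFP. Low Scx at P7 therefore need not mean a kept receptor. As the genotype is written f/-, the second allele was already null in all cells. Counts of Scx include those of the ScxGFP transgene. Deleting part of a gene need not remove its 3′ reads, so the 425 Tgfbr2 UMIs of the wild-type library and the 530 of the mutant library could not check the labels. With 1 library a genotype there is no spread between animals, and genotype cannot be told apart from litter, dissection, digestion or sequencing run.

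Metallothioneins are small cysteine-rich proteins that bind zinc and copper and also take up toxic metals such as cadmium. Their genes are switched on by zinc through the transcription factor Mtf1, which binds metal response elements in their promoters, and also by glucocorticoids, oxidative stress and inflammatory cytokines. Mt1 and Mt2 proteins are nearly interchangeable in metal binding, Mt3 is known from the nervous system and Mt4 from stratified epithelia.

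The genes lie side by side on the plus strand of mouse chromosome 8 (GRCm38), Mt2 (ENSMUSG00000031762) at 94172664 to 94173568 and Mt1 (ENSMUSG00000031765) at 94179082 to 94180327, with 5513 bases between them. Their upstream sequences are shown because both genes are known targets of Mtf1, whose part in the levels below was not tested. They come from RefSeq's GRCm38.p6 promoter windows, 250 bases before to 50 after the RefSeq start, of which the part before the RefSeq start is printed for Mt2, ending short of the annotated gene, and the part before the annotated gene for Mt1, 5′ to 3′, with matches to the core metal response element in capitals (TGCACNC or TGCGCNC, on either strand, written as the plus strand reads).
Mt1, chr8:94178839-94179081, plus strand: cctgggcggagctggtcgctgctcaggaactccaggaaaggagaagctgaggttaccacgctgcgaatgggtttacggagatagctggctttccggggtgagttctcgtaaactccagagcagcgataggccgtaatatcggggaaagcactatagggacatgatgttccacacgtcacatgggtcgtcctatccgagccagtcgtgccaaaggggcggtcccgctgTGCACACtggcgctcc
Mt2, chr8:94172368-94172617, plus strand: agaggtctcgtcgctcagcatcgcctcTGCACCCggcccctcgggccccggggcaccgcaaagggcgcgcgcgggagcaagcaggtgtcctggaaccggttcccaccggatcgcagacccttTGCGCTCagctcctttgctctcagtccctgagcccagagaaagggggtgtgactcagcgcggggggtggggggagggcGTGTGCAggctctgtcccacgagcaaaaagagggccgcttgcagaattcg
Over the whole window of 300 bases, Mt1 had 3 matches and Mt2 had 4. Among 32851 such windows of mouse genes, 25.7% held at least 1 match, 1.97% at least 3 and 0.517% at least 4. The printed part holds 1 of the Mt1 matches and 3 of the Mt2 matches. The remaining Mt1 matches lie inside the annotated gene, and the remaining Mt2 match lies between the printed part and the annotated gene. The printed parts are thus not like stretches of the genes. A match to these letters is a description of the sequence and was not shown to be a bound site. Reads of the genes could be told apart at their 3′ ends, where none (0) of the 251 stretches of 50 bases in the last 300 bases of the Mt1 or the Mt2 transcript occurred in the transcripts of another gene.

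The wild-type library held 2364 cells and 9451606 UMIs (unique molecular identifiers, each standing for 1 captured mRNA molecule), and the mutant library 2592 cells and 8250248 UMIs, with medians of 3866.5 and 2828 UMIs per cell. Over all cells, Mt1 was at 158 CPM (UMIs of the gene per 1000000 UMIs of all genes) in the wild-type and 565 CPM in the mutant library, and Mt2 at 52.7 and 252 CPM. Cells were sorted into classes by marker UMIs. Immune, endothelial and mural (pericyte and smooth muscle) cells had 5 or more UMIs over 12 markers of their type. Of the rest, Scx-high cells had at least 30 Scx UMIs per 10000, and Scx-low fibroblasts had 5 or more UMIs over Ly6a, Cd34, Dpt, Lum and Col3a1. The wild-type library gave 1091 Scx-high cells, 684 Scx-low fibroblasts, 248 mural, 28 endothelial and 193 immune cells, and the mutant library gave 169, 1765, 232, 60 and 198. A further 88 and 79 cells with over 50% haemoglobin UMIs served as a measure of free RNA, since red blood cells should hold little metallothionein mRNA, and 32 and 89 cells fell in no class. Intervals given with CPM values are exact 95% Poisson intervals and those with ratios are exact 95% conditional intervals. Both cover counting error only, and because UMIs of 1 cell are not independent they are narrower than the spread between cells would make them.

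In wild-type tendon, Mt1 and Mt2 were low in Scx-high cells, the cells that express the tendon transcription factor Scx most strongly, and higher in the Scx-low fibroblasts. In the mutant library both genes were higher in both of these classes, and over the whole classes the level of each gene was close between them. Scx-high cells had 43.8 CPM of Mt1 (37.8 to 50.4; 195 UMIs) in the wild-type library and 602 CPM (545 to 663; 405 UMIs) in the mutant library, a ratio of 13.7 (11.6 to 16.4). Mt2 in these cells was at 10.8 CPM (7.95 to 14.3; 48 UMIs) and 266 CPM (228 to 308; 179 UMIs), a ratio of 24.7 (17.9 to 34.7). Neither gene's intervals overlapped between the libraries. Mt2 passed the minimum of 0.1 UMI per cell, over both libraries, through its mutant cells, with 0.0440 Mt2 UMIs per cell in wild-type and 1.06 in mutant Scx-high cells. Of the 3931 genes past that minimum in Scx-high cells, 7.73% were at least 2-fold higher and 4.2% at least 2-fold lower in the mutant library, and in this order Mt2 was number 4 and Mt1 number 12. The median log2 ratio over these genes was 0.24, against 3.78 for Mt1 and 4.63 for Mt2. Scx-high cells were set by the gate alone and need not be the same kind of cell in both libraries. With each library clustered alone, its largest cluster held 1018 of the 1091 wild-type but 39 of the 169 mutant Scx-high cells. Their 8 tendon marker genes summed to 116533 and 60489 CPM. The paper proposes that cells keeping ScxGFP in mutant tendon are newly recruited, and their part in the ratios was not tested.

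Scx-low fibroblasts were also set by the gate alone and need not be the same kind of cell in both libraries. When each library was clustered on its own, 1442 of the 1765 mutant cells but 19 of the 684 wild-type cells of this class fell in the largest cluster of their library. These fibroblasts had 255 CPM of Mt1 (236 to 276; 647 UMIs) in the wild-type and 548 CPM (529 to 569; 2922 UMIs) in the mutant library, a ratio of 2.15 (1.97 to 2.34). Their Mt2 was at 130 CPM (116 to 145; 329 UMIs) and 283 CPM (269 to 298; 1509 UMIs), a ratio of 2.18 (1.94 to 2.47). The mutant library was higher for both genes, by nearly the same factor. Here 3.04% of 4115 genes were at least 2-fold higher and 3.67% at least 2-fold lower in the mutant library, with Mt2 number 99 and Mt1 number 106 in the order. Within the wild-type library, Scx-low fibroblasts held 5.83 times the Mt1 (4.96 to 6.88) and 12 times the Mt2 (8.87 to 16.7) of Scx-high cells, where 15.2% of 4178 genes were at least 2-fold higher and 5.1% at least 2-fold lower in the fibroblasts. Within the mutant library these ratios were 0.911 (0.821 to 1.013) for Mt1 and 1.06 (0.911 to 1.25) for Mt2, both intervals holding 1. Against the mutant Scx-high cells without any UMI of Ly6a, Cd34, Dpt and Lum, however, the fibroblasts held 1.15 times the Mt1 (0.941 to 1.41) and 1.99 times the Mt2 (1.39 to 2.97). In the mutant library 8.07% of 3955 genes were at least 2-fold higher and 3.29% at least 2-fold lower in the fibroblasts.

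**Figure D1:**
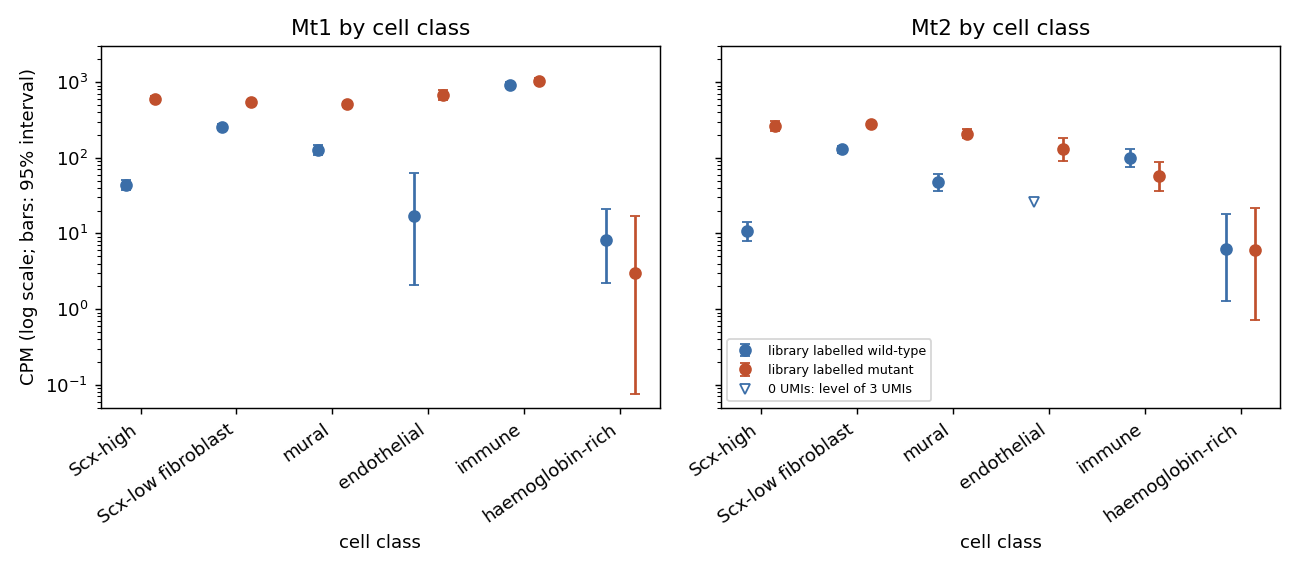
Level of Mt1 (left) and Mt2 (right) in CPM on a log axis, for each cell class of the wild-type (blue) and mutant (orange) library, with exact 95% Poisson intervals as bars and an open triangle at the level of 3 UMIs where none was counted. Scx-high cells rise from 43.8 to 602 CPM of Mt1, immune cells stay near 906 and 1027 CPM, and haemoglobin-rich cells stay under 10 CPM in both libraries.

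The wild-type Scx-high level of Mt2 could not be told apart from what free RNA gave, a measure that rests on few UMIs. Haemoglobin-rich cells held Mt2 in 2.27% of the wild-type (2 cells, 0.276 to 7.97%) and 2.53% of the mutant cells (2 cells, 0.308 to 8.85%). Their median depths were 5682 and 4451 UMIs. Wild-type Scx-high cells held Mt2 in 3.02% at 4186 UMIs. The Mt2 ratio in Scx-high cells therefore has a denominator that cannot be set apart from this background. Mt1 was in 10.1% of wild-type Scx-high cells, against 2.27% of haemoglobin-rich cells. Mutant Scx-high cells held Mt1 in 53.3% and Mt2 in 37.3%, far above the 1.27% and 2.53% of the mutant haemoglobin-rich cells.

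Markers of other cell types were also counted in the Scx-high class. The 12 immune markers, from the class with the most Mt1, summed to 30.3 CPM in wild-type and 32.7 CPM in mutant Scx-high cells, with a median of 0 UMIs per cell in both and 2 markers at 0 in each. The 12 endothelial markers summed to 26.5 CPM in wild-type and 161 CPM in mutant Scx-high cells and the 6 Schwann markers to 10.1 and 95.1 CPM, and their part in the result was not tested. The 5 fibroblast markers of the gate stood at 697 CPM in wild-type and 5364 CPM in mutant Scx-high cells, with medians of 1 and 14 UMIs per cell. Scx-high cells without any UMI of Ly6a, Cd34, Dpt and Lum had 28.0 CPM of Mt1 in the wild-type (803 cells) and 478 CPM in the mutant library (58 cells). The ratio was 17.1 (12.7 to 23.0). Col3a1, the other marker of the gate, was not left out of these cells, and the part of fibroblast transcripts in the ratio was not tested. Their Mt2 was at 2.57 CPM (8 of 803 cells) and 142 CPM (15 of 58 cells). Scx-high cells with 3 or more UMIs of Ly6a, Cd34, Dpt and Lum were higher in both libraries, at 114 and 810 CPM of Mt1, a ratio of 7.12 (5.06 to 10.3).

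Across the range of Scx, the difference between the libraries was widest at high Scx. In wild-type cells, Mt1 was at 288 CPM in fibroblasts without Scx, 238 CPM above 0 and under 5 Scx UMIs per 10000, 249 CPM from 5 to 30, 171 CPM from 30 to 100, 36.9 CPM from 100 to 300 and 16.6 CPM at 300 or more. Mutant cells had 562, 538, 449, 403, 670 and 765 CPM of Mt1 in the same bins. Wild-type Mt1 thus fell along the upper bins, while the highest mutant level was in the highest bin. That mutant level (648 to 896 CPM) overlapped with the one from 100 to 300 (569 to 785 CPM). In the highest mutant bin, 1 of the 40 cells held 29 of the 152 Mt1 UMIs. The ratio of the libraries was between 1.80 and 2.36 in the 4 bins under 100, 18.2 (14.0 to 23.7) from 100 to 300 and 46.1 (29.6 to 75.0) at 300 or more. Mt2 had 165, 116, 116, 47.8, 7.23 and 5.77 CPM in wild-type and 300, 259, 179, 263, 221 and 322 CPM in mutant cells. Its ratio was 1.81, 2.23 and 1.54 in the 3 bins under 30, already 5.51 (3.32 to 9.50) from 30 to 100, then 30.5 (17.7 to 54.7) and 55.8 (26.7 to 135). The last 2 ratios rest on 19 and 8 wild-type Mt2 UMIs and on 59 and 40 mutant cells. Their wild-type levels were near the 6.13 CPM (1.26 to 17.9) of wild-type haemoglobin-rich cells, so how far the Mt2 ratio rises there cannot be told. At the threshold of the class the step was not sharp, as wild-type cells had 170 CPM of Mt1 with 15 to 30 Scx UMIs per 10000 (51 cells) and 317 CPM with 30 to 60 (45 cells), and mutant cells 384 CPM (34 cells) and 416 CPM (37 cells). The wild-type values rest on 25 Mt1 UMIs (110 to 250 CPM) and 47 Mt1 UMIs (233 to 421 CPM). From 30 to 60, 4 wild-type cells held 76.2% of the metallothionein UMIs. Across cells, the Pearson correlation of summed Mt1 and Mt2 with Scx was -0.20 in wild-type (n = 1091) and 0.25 in mutant Scx-high cells (n = 169), as a description, since the cells share a library.

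**Figure D2:**
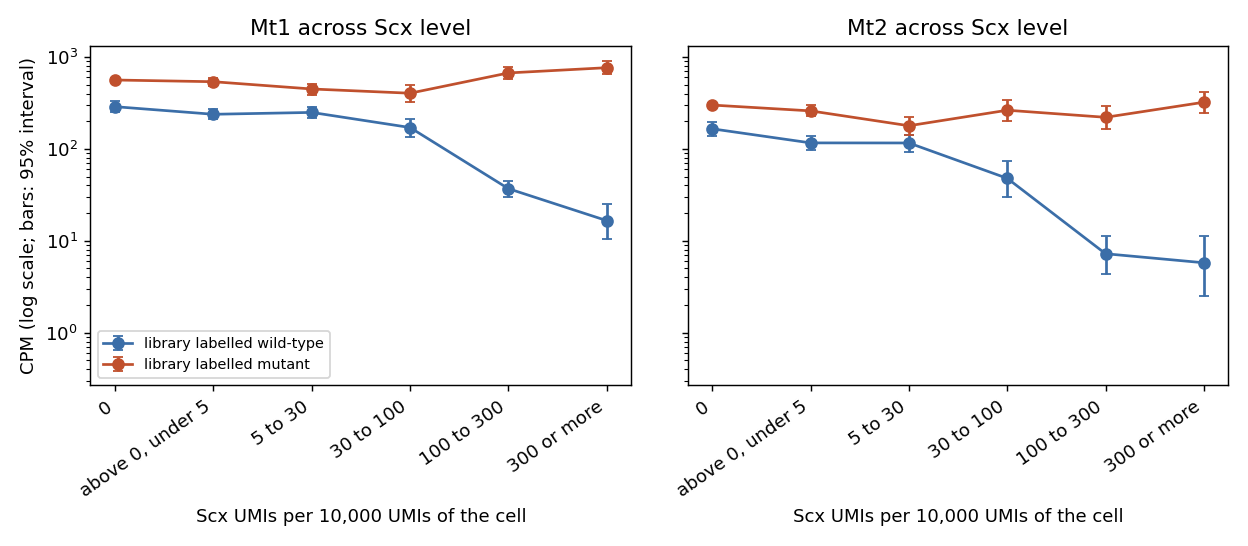
Mt1 (left) and Mt2 (right) in CPM on a log axis against the Scx UMIs per 10000 of a cell, over Scx-low fibroblasts (first 3 bins) and Scx-high cells (last 3 bins), with exact 95% Poisson intervals. The wild-type line (blue) falls to 16.6 CPM of Mt1 at the highest Scx, where the mutant line (orange) stands at 765 CPM.

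Metallothionein UMIs were spread unevenly over the cells. Of wild-type Scx-high cells 88.8% had no UMI of either gene and 8 cells (0.733%) had 5 or more, while of mutant Scx-high cells 39.1% had none and 37 cells (21.9%) had 5 or more. Among Scx-low fibroblasts 53.2% of wild-type and 44.9% of mutant cells had none, and 63 (9.21%) and 338 (19.2%) had 5 or more. The 10% of cells with the most UMIs held 94.7% of the metallothionein UMIs of wild-type Scx-high cells, 51.9% in mutant Scx-high cells, and 54.1% and 50.6% in wild-type and mutant Scx-low fibroblasts. At least 1 UMI was held by 11.2% of wild-type and 60.9% of mutant Scx-high cells, or 6.35% and 47.7% at an equal depth of 1500 UMIs.

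**Figure D3:**
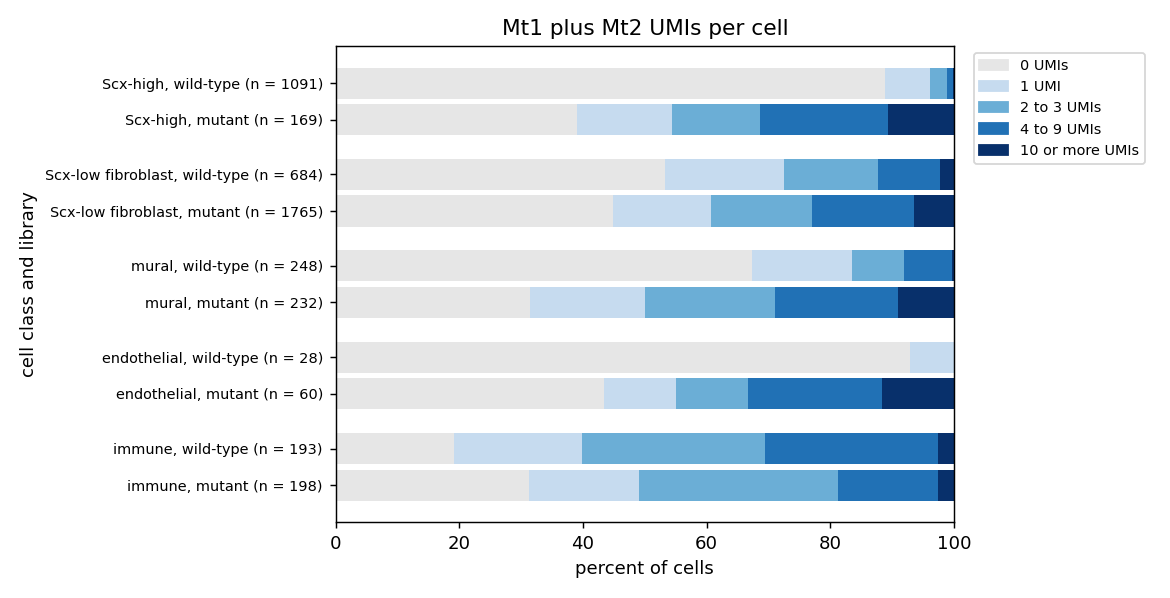
Share of cells (horizontal axis, percent) with 0, 1, 2 to 3, 4 to 9 and 10 or more UMIs of Mt1 plus Mt2, for each cell class and library (n = cells). Cells without a UMI make up 88.8% of wild-type and 39.1% of mutant Scx-high cells, and 19.2% of wild-type and 31.3% of mutant immune cells.

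Because the libraries differ in depth, shares of cells were also taken at an equal depth of 1500 UMIs drawn from each cell, without the shallower cells (199 wild-type and 328 mutant ones). Mt1 was then in 5.85% of wild-type and 38.4% of mutant Scx-high cells, and in 25.8% and 36.8% of Scx-low fibroblasts. Mt2 was in 1.19% and 24.5% of Scx-high cells and in 10.9% and 22.1% of Scx-low fibroblasts. The mutant share was the higher for both genes in both classes, as it was before thinning.

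Cells with Mt2 tended to be cells with Mt1. Before thinning, 15.4% of wild-type Scx-low fibroblasts had both, where the product of the separate shares was 8.92%, and 26.1% of mutant ones, where the product was 15.8%. Scx-high cells had both in 1.92% (product 0.305%) in the wild-type and in 29.6% (product 19.9%) in the mutant library. After thinning, the share with both was 9.97 and 1.62 times the product in wild-type and mutant Scx-high cells, and 1.94 and 1.80 times in Scx-low fibroblasts, the first of these from 7 cells. Of the mutant Scx-low fibroblasts with Mt2, 80.7% also had Mt1, and of those with Mt1, 53.4% also had Mt2. The Pearson correlation of the genes across cells (log2 of 1 plus UMIs per 10000) was 0.41 and 0.39 in wild-type Scx-high and Scx-low cells, and 0.45 and 0.54 in the mutant ones. Summed Mt1 and Mt2 had correlations from 0.04 to 0.20 with the UMIs of the cell and from -0.01 to 0.03 with its mitochondrial share.

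Immune cells, most of which held the macrophage C1q genes, had the most Mt1 of the 5 classes in each library, and differed little between the libraries. Their Mt1 was at 906 CPM (827 to 992; 473 UMIs) in the wild-type and 1027 CPM (930 to 1132; 410 UMIs) in the mutant library, a ratio of 1.13 (0.991 to 1.30). Mt2 went the other way from the remaining classes, at 99.6 CPM (74.4 to 131; 52 UMIs) in the wild-type and 57.6 CPM (36.5 to 86.5; 23 UMIs) in the mutant library, a ratio of 0.578 (0.338 to 0.962). The Mt2 intervals overlap, and the counts behind them are small. In immune cells 4.24% of 3162 genes were at least 2-fold higher and 3.57% at least 2-fold lower in the mutant library, and neither Mt1 nor Mt2 was among them. Limited to cells with 2 or more UMIs over C1qa, C1qb and C1qc, Mt1 was at 944 CPM in 182 wild-type and 1193 CPM in 172 mutant cells. The ratio was 1.26 (1.10 to 1.45), and that of Mt2 in the same cells was 0.637 (0.369 to 1.07). Immune cells held 3.55 times the Mt1 of Scx-low fibroblasts in the wild-type and 1.87 times in the mutant library, but 0.768 and 0.203 times their Mt2. The share of immune cells with Mt2 at 1500 UMIs was 10.5% (6.14 to 16.5) and 9.40% (4.79 to 16.2), which did not set the libraries apart.

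Mural cells, which wrap small vessels, had 126 CPM of Mt1 (108 to 147) and 47.9 CPM of Mt2 (36.6 to 61.5) in the wild-type library. In the mutant library they had 507 CPM of Mt1 (466 to 551) and 209 CPM of Mt2 (183 to 238), ratios of 4.01 (3.36 to 4.81) and 4.36 (3.27 to 5.89). The mutant library was the higher, where 5.16% of 5426 genes were at least 2-fold higher and 4.77% at least 2-fold lower. The gate was broad, since 69 of the wild-type and 65 of the mutant mural cells also had 30 or more Scx UMIs per 10000, the 8 tendon genes summed to 36749 and 26513 CPM, and 8 skeletal muscle markers to 186 and 2288 CPM, and their part in the ratio was tested only by narrowing the gate. Mural cells under that Scx level with 3 or more UMIs over 8 pericyte genes (149 and 97 cells) had 151 and 489 CPM of Mt1, a ratio of 3.25 (2.54 to 4.16), and 24.4 and 112 CPM of Mt2. Those rich in Myh11, the smooth muscle myosin heavy chain (81 and 31 cells), had 124 and 229 CPM of Mt1. The ratio was 1.84 (1.12 to 2.96). Their Mt2 rested on 3 wild-type UMIs, at 6.54 CPM (1.35 to 19.1), and 1 mutant UMI, at 8.47 CPM (0.214 to 47.2). These counts are too few to set their Mt2 apart from that of the haemoglobin-rich cells. Mural cells outside the pericyte set (99 and 135), which include all those with high Scx, had 93.1 and 515 CPM of Mt1. The ratio was 5.53 (4.11 to 7.59), and that of Mt2 was 3.18 (2.28 to 4.54). The 69 and 65 high-Scx cells among them are thus missing from the Scx-high class of 1091 and 169 cells.

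Endothelial cells were few. The 28 wild-type cells held 2 Mt1 UMIs (17.1 CPM, 2.08 to 61.9) and 0 Mt2 UMIs (0 CPM, 0 to 31.6). The 60 mutant cells held 177 Mt1 UMIs (676 CPM, 580 to 783) and 34 Mt2 UMIs (130 CPM, 89.9 to 181). The Mt1 ratio was 39.4 with a counting interval from 10.8 to 328. Mt2 was 5.05-fold higher against a floor of 3 UMIs over the wild-type class (25.7 CPM), and its counting interval began at 3.89. In this class 14.4% of 5682 genes were at least 2-fold higher and 10.9% at least 2-fold lower in the mutant library, the largest shares of the 5 classes. Its cells were not alike, as the 6 Schwann cell markers summed to 17.1 CPM in the wild-type and 13537 CPM in the mutant class, and red blood cell genes to 231 and 8846 CPM. Without the 9 cells that had 5 or more Schwann marker UMIs, the mutant endothelial cells still had 595 CPM of Mt1 (496 to 708) and 93.8 CPM of Mt2 (57.3 to 145). The 5 fibroblast markers of the gate summed to 2691 CPM over wild-type endothelial cells and 7246 CPM over mutant ones. Their medians were 3 and 7 UMIs per cell. The 12 endothelial markers had medians of 28 and 9.5 UMIs per cell, in the same order. The 8 tendon genes were lower on the mutant side, at 16576 and 10294 CPM. What fibroblast transcripts added to the Mt1 and Mt2 ratios of this class was not tested.

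Ordered by Mt1 in the wild-type library, immune cells were followed by Scx-low fibroblasts, mural cells, Scx-high cells, endothelial cells and haemoglobin-rich cells, and only the last 3 had intervals that overlapped with a neighbour. In the mutant library immune cells again came first, and endothelial cells, Scx-high cells, Scx-low fibroblasts and mural cells followed within 676 to 507 CPM, each overlapping with the next. For Mt2 the wild-type order was Scx-low fibroblasts, immune, mural, Scx-high, haemoglobin-rich and endothelial cells, the first pair and the last 3 overlapping. In the mutant library it was Scx-low fibroblasts, Scx-high, mural, endothelial, immune and haemoglobin-rich cells, the first 3 overlapping with a neighbour. Where the wild-type levels of Mt1 in the 4 classes other than immune cells ran from 17.1 to 255 CPM, the mutant levels thus lay within 507 to 676 CPM.

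Among Scx-high cells, Scx-low fibroblasts, mural and immune cells as whole classes, the share of Mt1 among metallothionein UMIs was highest in immune cells. It was alike between the libraries in fibroblasts and in the mural class as a whole. Counted at the 3′ end and without length correction, Mt1 made up 66.3% (63.2 to 69.3) of the metallothionein UMIs of wild-type and 65.9% (64.5 to 67.3) of those of mutant Scx-low fibroblasts, and 72.5% and 70.8% in mural cells. In Scx-high cells it was 80.2% (74.7 to 85.1) in the wild-type and 69.3% (65.4 to 73.1) in the mutant library. Immune cells stood apart with 90.1% (87.2 to 92.5) and 94.7% (92.1 to 96.6), or 9.10 and 17.8 Mt1 UMIs for each Mt2 UMI.

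Within the Scx-low fibroblasts, Mt1 and Mt2 were higher in the cells with adventitial markers, in both libraries. Cells with a UMI of Pi16, a gene of adventitial fibroblasts, had 304 CPM of Mt1 against 213 CPM in cells without it in the wild-type library, and 778 against 487 CPM in the mutant library. Cells with Ly6a, which encodes the surface antigen Sca-1, had 296 against 158 CPM and 682 against 372 CPM, ratios of 1.88 (1.53 to 2.31) and 1.83 (1.69 to 1.99). The ratio between the libraries was therefore similar with Ly6a (2.31, 2.10 to 2.54) and without it (2.36, 1.94 to 2.89). Cells with 2 or more UMIs of Tnmd, the tendon membrane protein tenomodulin, had 209 CPM of Mt1 in the wild-type and 511 CPM in the mutant library, and cells without Tnmd had 293 and 571 CPM.

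The Scx-high ratio was also seen in cells outside the cell cycle, those with fewer than 2 UMIs over cell cycle genes. Non-cycling Scx-high cells had 37.3 CPM of Mt1 in the wild-type (1009 cells) and 602 CPM in the mutant library (142 cells), a ratio of 16.1 (13.3 to 19.7). The cycling ones had 105 CPM (82 cells) and 602 CPM (27 cells), a ratio of 5.76 (3.97 to 8.45). Among mutant Scx-low fibroblasts, cycling cells had less Mt1 (405 CPM) than the others (560 CPM), and among wild-type ones 264 and 254 CPM.

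Genes whose level per cell went most with Mt1 and Mt2 were sought among the 2921 genes detected in 10% or more of the cells of each of the 4 Scx-high and Scx-low sets, by the mean Pearson correlation with the summed pair over the sets. The 10 highest were Fn1 (fibronectin, mean r = 0.23), Lum (the proteoglycan lumican, 0.20), Anxa1 (annexin A1, 0.20), Tspo (a mitochondrial outer membrane protein, 0.19), Capg (an actin capping protein, 0.18), Nbl1 (a secreted BMP antagonist, 0.18), Col5a1 (a type V collagen chain, 0.17), Cthrc1 (0.15), Crip1 (a LIM domain protein, 0.15) and Prrx2 (a homeobox factor, 0.15). All are weak. Cthrc1 was positive in 3 of the 4 sets and the other 9 genes in all 4. The ferritin gene Fth1 came at number 55 with 0.10, the type I collagen gene Col1a1 had -0.11, and 1500015O10Rik was lowest with -0.18.

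Other genes of metal handling are given beside the shares of all genes past 2-fold, 3.04% higher and 3.67% lower in Scx-low fibroblasts, against which lists this short can say little. Among Scx-low fibroblasts, 2 of 10 zinc exporter genes and 2 of 14 zinc importer genes were measured (0.1 UMI per cell or more), and 0 of these were 2-fold higher or lower. The exporters were Slc30a5 and Slc30a7 with ratios of 0.861 and 1.29, and the importers Slc39a13 and Slc39a7 with 0.812 and 0.868. Of 11 copper genes 6 were measured, from the copper chaperone Atox1 at 0.757 to the collagen cross-linking oxidase Loxl1 at 1.11, and of 10 iron genes 4, from the chaperone Pcbp1 at 0.645 to Fth1 at 1.5, again with 0 past 2-fold. Slc30a1, a zinc exporter also known as a target of Mtf1, was too rare to be measured, with 8 wild-type and 26 mutant UMIs in Scx-low fibroblasts, and so was Mtf1 itself with 34 and 73 UMIs. Of other genes under the minimum, the zinc importer Slc39a14 had 33 and 180 UMIs there, a ratio of 2.60 (1.78 to 3.89). The Nrf2 target Hmox1, haem oxygenase, had 33 and 187 UMIs, a ratio of 2.70 (1.86 to 4.03). The glucocorticoid response gene Fkbp5 was at 2.65 (1.17 to 7.02). These were picked after their values were seen, and genes under the minimum also went lower. Among those were Adm at 0.320 (0.237 to 0.430), Gsta4 at 0.445 (0.287 to 0.689) and Pgk1 at 0.0840 (0.0288 to 0.202). In Scx-high cells 0 of 3 measured zinc exporters, 0 of 4 importers and 0 of 4 iron genes were past 2-fold, and among 6 copper genes Loxl1 was at 6.84.

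Over the measured genes of all lists, without Mt1 and Mt2, 6 of 68 (8.82%) were at least 2-fold higher and 3 (4.41%) lower in Scx-low fibroblasts, and 9 of 62 (14.5%) higher and 4 (6.45%) lower in Scx-high cells, where the shares over all genes were 7.73% and 4.2%. In Scx-low fibroblasts, 0 of 6 measured Nrf2 targets (oxidative stress genes) passed, from the redox protein gene Txn1 at 0.577 to the peroxiredoxin Prdx1 at 1.40, and 0 of 6 glucocorticoid response genes, from Errfi1 at 0.714 to the kinase gene Sgk1 at 1.77. Of 14 glutathione and antioxidant enzymes, Gpx3 (3.44) and Mgst1 (2.24) were higher and Gpx4, the lipid peroxide reductase, was lower (0.245), with Gpx3 past the minimum only through its mutant cells. Heat shock genes ran from Hspb1 at 0.402 to Dnajb1 at 1.74, with 1 of 7 lower, 0 of 4 hypoxia genes passed, from P4ha1 (0.603) to Ndrg1 (1.32), and of 5 cell cycle genes 1 was lower, from Ube2c (0.359) to Cdc20 (0.751). Hspb1 and Ube2c passed the minimum only through the wild-type cells. The immediate early genes, which cell dissociation can induce, were the list with most members higher, at 4 of 12 (Fos 2.18, Junb 2.18, Zfp36 2.16 and Fosb 2.03), with Jund lowest at 0.570 and a median log2 ratio of 0.62 against -0.02 for all 4115 genes. Those 4 genes were higher alongside Mt1 and Mt2 in these fibroblasts, while Atf3 (0.683) was also lower and Nr4a1 was at 1.01. The part of this list in the result was not tested. In Scx-high cells 0 of 11 immediate early genes were past 2-fold and their median log2 ratio was -0.31.

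The same lists in Scx-high cells had 2 of 8 glutathione and antioxidant genes higher (Mgst3 4.71 and the extracellular dismutase Sod3 4.33) and 1 lower (Gpx4 0.285). Of 6 Nrf2 targets, Gclm was higher (2.23) and the cystine transporter gene Slc7a11 lower (0.0774, from 2 mutant UMIs). None (0) of 6 heat shock and 0 of 4 glucocorticoid genes passed. Of 4 hypoxia genes the carbonic anhydrase Car9 (0.0592) and the prolyl hydroxylase P4ha1 (0.144) were lower, and of 6 cell cycle genes 5 were higher, from Top2a at 2.08 to Cdk1 at 2.26. Sod3 and Gclm passed the minimum only through the mutant cells, and Slc7a11 and Car9 only through the wild-type ones.

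**Figure D4:**
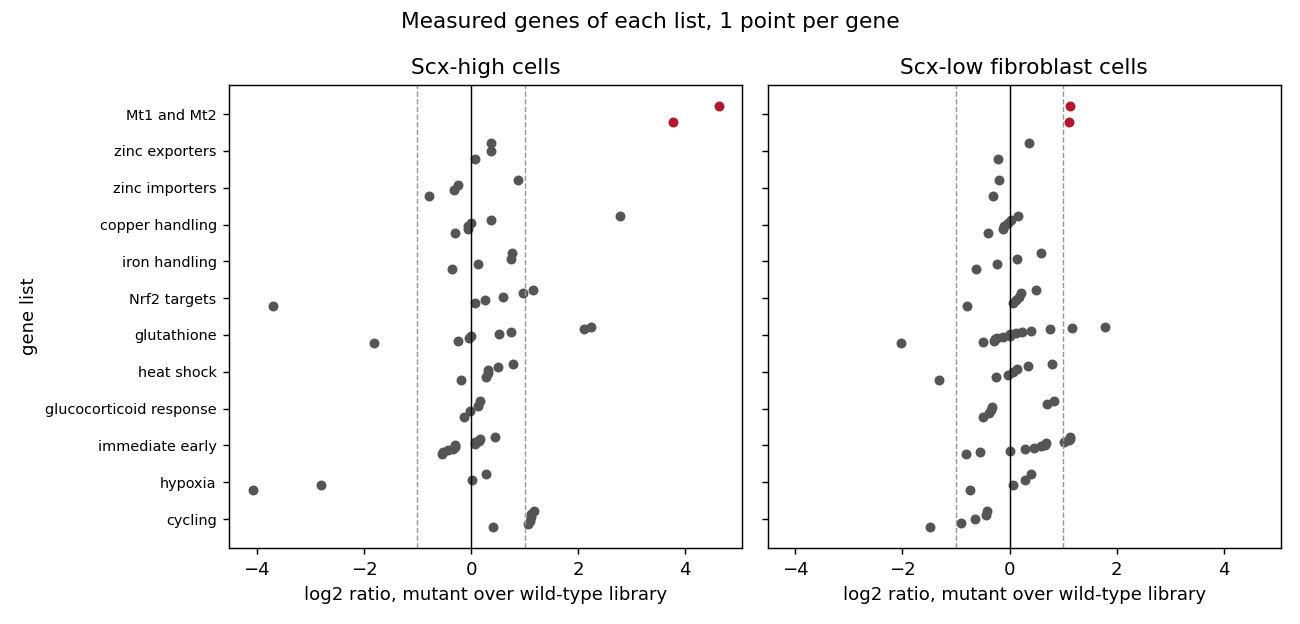
Log2 ratio of the mutant over the wild-type library (horizontal axis) for each measured gene of 12 lists (vertical axis), in Scx-high cells (left) and Scx-low fibroblasts (right), 1 point per gene, with dashed lines at 2-fold. Mt1 and Mt2 (red) lie at 3.78 and 4.63 in Scx-high cells and at 1.10 and 1.13 in Scx-low fibroblasts, while the zinc, iron and glucocorticoid genes lie within 2-fold in both.

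The make-up of the libraries was set apart from the levels in both directions. With the wild-type level of each class and the mutant share of UMIs per class, the whole library would have had 233 CPM of Mt1 and 97.8 CPM of Mt2, against 158 and 52.7 CPM counted in the wild-type and 565 and 252 CPM in the mutant library. With the mutant level of each class and the wild-type shares it would have had 572 CPM of Mt1 and 239 CPM of Mt2, close to the mutant library as counted. Shares of cells per class depend on dissection and digestion as well as on the tissue, and those parts cannot be told apart here.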

How the data were processed

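The authors made 10x Genomics 3′ libraries from enzymatically digested limb tendons at P7 and deposited UMI counts per gene and cell, whole numbers without normalization, aligned to mm10. Cell Ranger is given as 2.0 in the study's methods and as 1.2.0 in the submitters' processing notes. All deposited barcodes (948 to 14358 and 903 to 15968 UMIs per cell) were used, of which 2 occur in both libraries. UMIs were summed per class and library and divided by the summed total (CPM). Where a cell passed several marker gates (15 and 14 cells), the type with most UMIs was taken, and haemoglobin-rich cells were set aside first. Poisson, conditional and Clopper-Pearson intervals at 95% cover counting error. With 1 library per genotype no test was run. Genes of a list counted as measured from 0.1 UMI per cell over both libraries. Named were Mt1 and Mt2 in full, the highest and lowest measured member of each list in Scx-low fibroblasts, members past 2-fold, and the 10 genes of highest mean correlation. Slc30a1, Mtf1, Slc39a14, Hmox1, Fkbp5, Adm, Gsta4, Pgk1, Atf3 and Nr4a1 were named after their values were seen. So were the highest and lowest genes in Scx-high cells. The members, lists, classes and alternatives were chosen with earlier results of these data known. Gates were kept broad as given by the rule for the classes, and narrower mural, immune, endothelial and Scx-high sets were added after seeing the data. Doublets stayed in (Scrublet, expected rate 2%, called 26 and 8 cells). Ratios with their intervals were checked on simulated counts. Those counts were independent Poisson draws, as the intervals assume, so the check could not cover the clumping of UMIs in cells. Gene positions are from GENCODE M21 and promoters from RefSeq, both on GRCm38. Python 3.11.15, NumPy 2.4.6, pandas 2.3.3, SciPy 1.17.1, scikit-learn 1.9.0, scanpy 1.11.5 and matplotlib 3.10.9 were used, with seed 1.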

Additional observations from a re-analysis of the deposited data

Results flagged for a closer look

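Scx-low fibroblasts over Scx-high cells stood at 5.83 for Mt1 in the wild-type library, against 0.911 in the mutant one, on either side of 1, but the mutant interval (0.821 to 1.013) holds 1 and gives no direction. Under other settings the mutant value ran from 0.851 to 1.15. It was 0.851 (0.762 to 0.953) at an Scx threshold of 60 and 0.865 (0.779 to 0.962) without the 20 most abundant genes. Mt2 in immune cells was lower in the mutant library, at a ratio of 0.578, while it was higher in Scx-high cells (24.7), Scx-low fibroblasts (2.18) and mural cells (4.36). Under other settings the immune ratio ran from 0.518 to 0.779. In immune cells with 2 or more C1q UMIs it was 0.637 (0.369 to 1.07), an interval that holds 1 and gives no direction. With 1 library per genotype these differences were not tested.

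Cells outside the classes also held metallothionein. In the mutant library, 29 unclassed cells with 5 or more UMIs of Schwann markers had 1780 CPM of Mt1 (1466 to 2142) and 350 CPM of Mt2. A count of 3 UMIs there would be 47.7 CPM. The cell with the most was an unclassed mutant cell with 63 Mt1 and 57 Mt2 UMIs of 6009, which also held 522 UMIs of Cfd, 69 of Fabp4 and 18 of Adipoq, genes known from fat cells. Mt3 gave 49 UMIs in the mutant library, of which 43 were in 18 of the 68 cells with Schwann markers, and 15 UMIs in the wild-type library, where 1 cell had Schwann markers and held 0 of them.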

How the results depend on the processing

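No paired analysis was possible because each genotype has 1 library, and no library could be left out. Of 179 recomputed ratios, 153 stayed within the counting interval of the reported value, 26 moved out of it and 0 turned a direction whose interval left out 1, while 3 mutant Scx-low over Scx-high ratios, whose intervals held 1, crossed it. Some of the 153 could not move. The Scx thresholds and the gate without Col3a1 leave the mural, endothelial and immune classes unchanged, and the latter also the Scx-high class. In the lists of values below, Mt1 comes before Mt2 where both are given. Without the 20 most abundant genes in the total, wild-type Scx-low over Scx-high Mt1 was 4.79. With free RNA subtracted it was 7.44 (Mt2 49.7) and the mutant over wild-type ratio in Scx-high cells 18.3 and 107. Both Mt2 values rest on a wild-type Scx-high level near that background, itself 3 Mt2 UMIs in 88 wild-type cells. An Scx threshold of 15 gave 16.9 for Mt2 in Scx-high cells, and one of 60 gave 18.7 and 39.4, with wild-type Scx-low over Scx-high at 7.42 and 17.5. Gates of 3 and 10 UMIs put mural Mt2 at 5.92 and 9.05, and the narrow mural gate put Mt1 at 3.25. Without Col3a1 in the gate, 19.1% and 29.2% of wild-type and mutant Scx-low fibroblasts had both genes. Thinned cells had both in 0.694% and 15.2% of Scx-high cells and 5.44% and 14.6% of Scx-low fibroblasts, and Mt1 ratios of 10.2 (Scx-high), 1.86 (Scx-low) and 3.10 (mural). Between the largest K-means clusters, mostly Scx-high cells in the wild-type and Scx-low fibroblasts in the mutant library, the ratios were 16.5 and 38.6. These compare unlike classes, yet were counted among the 179 against both the Scx-high and the Scx-low ratios. Scx-high cells without any UMI of Ly6a, Cd34, Dpt and Lum gave 17.1 and 55.2 (24.7 to 139) between libraries. Against them, wild-type Scx-low over Scx-high ratios were 9.12 and 50.5, and mutant ones 1.15 and 1.99. The 55.2 and 50.5 rest on 8 wild-type Mt2 UMIs, or 2.57 CPM. That level lies within the interval of the wild-type haemoglobin-rich cells (1.26 to 17.9 CPM). List genes at least 2-fold higher in Scx-high cells, with Mt1 and Mt2 included, numbered 11 of 64 measured. They were 0 of 29 at a mean of 0.5 UMI, which Mt1 and Mt2 did not reach there, and 31 of 122 with 1 UMI in each library. List genes lower in Scx-low fibroblasts were 3 of 70, 0 of 27 and 14 of 129. The shares over all genes, 7.73% and 3.67%, were taken at the main minimum only, so the counts at other cuts have no such share beside them. The cause was not tested for the other shifts. The endothelial Mt1 ratio, on 2 wild-type UMIs, ranged from 11.8 to 108.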

Other observations

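Mt4 was counted in the wild-type library only, with 6 UMIs in 5 cells, against 0 in the mutant library, too few to compare. Wild-type Mt3 was in 13 of 1091 Scx-high cells and 2 of 684 Scx-low fibroblasts, each with 1 UMI, and in 0 of 169 mutant Scx-high cells, which allows a share of up to 1.78% of cells with a UMI and sets no limit on cells that express it. Of the wild-type Mt1 UMIs 13.1% were in Scx-high cells, 43.4% in Scx-low fibroblasts and 31.7% in immune cells, and of the mutant ones 8.69%, 62.7% and 8.80%. Immune cells with fewer than 2 C1q UMIs had 2 Mt1 UMIs in 11 wild-type and 15 in 26 mutant cells, 87.8 CPM (10.6 to 317) and 221 CPM (124 to 364), below the levels of the C1q cells.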
